A study of Homo sapiens with 8 samples.

Results

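Integrins and laminins are the chains with which keratinocytes hold on to the basement membrane. All genes with an integrin α or β chain symbol or a laminin α, β or γ chain symbol were taken from the deposited table, leaving out genes that only encode integrin-binding proteins. Of the 38 such chains in the RefSeq gene table, 36 had rows among the 17131 genes, with 16 integrin α chains, 8 integrin β chains and 12 laminin chains. ITGA8 and ITGAD had no row and were not analysed here. The libraries came from HaCaT, an established line of human keratinocytes labelled wild type. The methods describe stimulation with M5, a mixture of 5 cytokines (oncostatin M, TNF-α, IL-1α, IL-17A and IL-22, 10 ng/mL of each for 24 h), as a psoriasis-like culture model, and OTS514, an inhibitor of the kinase TOPK, at 10 nM from 12 h before M5. The 8 libraries were 4 titled M5_O5 and 4 titled M5, and no unstimulated culture was analysed here. By title, the M5_O5 libraries would be those with OTS514, but the treatment field says that these libraries had none and that the libraries titled M5 had the TOPK inhibitor. The groups are therefore called by their titles: a chain that was lower in M5_O5 was lower with OTS514 if the titles hold, and higher with OTS514 if the treatment field holds. HaCaT is a single immortalized line, and the labels do not say whether the 4 libraries of a group came from separate experiments, so the p-values measure the spread between these samples, which may be technical.

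Each integrin is a pair of an α and a β chain that spans the plasma membrane, binds matrix outside and links to the cytoskeleton inside. Laminins are secreted trimers of an α, a β and a γ chain. In basal keratinocytes, laminin-332, which contains the chains of LAMA3 and LAMB3, anchors the cell through integrin α6β4 in hemidesmosomes, which hold keratin filaments, while β1 and αv integrins gather in focal adhesions, which hold actin.

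Total counts lay between 13708055 and 16922693 per library, and M5 replicate 1 had the smallest. That library also stood apart in genes of G2 and mitosis, whose mean log2(CPM + 1) was 3.40 there, 2.52 to 2.61 in the other M5 libraries and 3.75 to 3.85 in M5_O5. CPM is the count of a gene after scaling to library size with TMM factors. All 12 keratinocyte markers had a mean of at least 1 TPM, a unit scaled for transcript length and library. Their summed level was 18953 to 22720 TPM in M5_O5 and 21550 to 23172 TPM in M5, which overlapped. GJB2 was lower in M5_O5 (log2 fold change -0.64, adjusted p = 4.03e-06), as was KRT16 (-0.51, adjusted p = 5.83e-05). KRT14, TP63, DSC3, SFN and PERP were also lower past the threshold, at -0.40 to -0.25. KRT5, KRT17, KRT6A, CDH1 and DSG3, at -0.12 to -0.05, did not pass it. Of the markers of other cells, 1 of 8 fibroblast, 1 of 8 endothelial, 3 of 9 leukocyte and 0 of 6 melanocyte genes reached a mean of 1 TPM. PTPRC, which all leukocytes carry, was at 0 in all 8 libraries. The summed endothelial markers were at 2.6 to 3.23 TPM in M5_O5 and 1.11 to 1.4 TPM in M5. CDH5 was at 1.01 to 1.44 and 0.07 to 0.19 TPM (log2 fold change 3.18, adjusted p = 2.57e-06). ROBO4 was at 1.18 to 1.62 and 0.93 to 1.11 TPM, apart but not past the threshold (adjusted p = 0.204). The summed fibroblast markers were at 10.34 to 10.82 TPM in M5_O5 and 13.07 to 15.39 TPM in M5, nearly all of it COL1A1 (log2 fold change -0.58, adjusted p = 0.000168), while COL1A2, COL3A1, PDGFRB, DCN and THY1 were at 0 to 0.27 TPM. CD68, a macrophage marker that other cells also express, was lower too (-0.45, adjusted p = 0.00675). The part of these genes in the differences of the chains was not tested.

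RefSeq promoter windows (GRCh38.p14, 250 bases before to 50 after the start) were found for 25 of the 36 chains. The stretches of 200 bases below, from 175 bases before the start to 25 after it, are those of an α and a β chain of laminin-332, which were lower together, and of an α chain whose window shared a motif with LAMA3. They lie at chr18:23872845-23873044 on the plus strand (LAMA3), chr1:209652401-209652600 on the minus strand (LAMB3) and chr12:54419242-54419441 on the minus strand (ITGA5). Each is written 5′ to 3′ on the strand of the gene, and capitals mark the AP-1 motif TGACTCA in either orientation.
LAMA3: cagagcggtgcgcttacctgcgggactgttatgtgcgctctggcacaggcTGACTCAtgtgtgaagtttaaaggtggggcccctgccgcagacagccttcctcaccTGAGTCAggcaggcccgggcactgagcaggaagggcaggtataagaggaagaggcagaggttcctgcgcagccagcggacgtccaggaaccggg
LAMB3: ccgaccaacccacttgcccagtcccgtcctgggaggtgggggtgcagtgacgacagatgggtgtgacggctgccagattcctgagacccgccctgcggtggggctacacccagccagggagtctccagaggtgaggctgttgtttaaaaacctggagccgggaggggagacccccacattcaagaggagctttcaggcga
ITGA5: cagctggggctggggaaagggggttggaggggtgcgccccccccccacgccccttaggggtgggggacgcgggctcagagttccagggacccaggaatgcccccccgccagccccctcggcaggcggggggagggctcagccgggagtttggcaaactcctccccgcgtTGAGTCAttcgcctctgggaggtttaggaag
The motif began at -125 and -69 in LAMA3 and at -6 in ITGA5, counted from the start with no base 0, and LAMB3 had none of it. The short LAMA3 transcript, the main form in these libraries, starts at -180 on this count in GENCODE v29, so both LAMA3 matches lie after its annotated start.

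Across 19 windows of tested chains, the AP-1 motif was in 2, against 4.92% of 27305 promoters. The GC box GGGCGG was in 12 of the 19, against 44.6% of promoters. The STAT motif TTCNNNGAA was in 2 (LAMB2 and ITGAE) against 7.88%, the TEAD motif GGAATG in 3 against 14%, the NF-κB motif in 4 (ITGA1, ITGA5, ITGA10 and LAMB3) against 5.72%, and the CRE motif TGACGTCA in 0 against 1.98%. All were searched on both strands, and a match describes letters only.

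Most chains that HaCaT cells expressed at a high level were lower in M5_O5, by less than 2-fold. Together the 36 chains took 2.07% to 2.21% of all counts in M5_O5 and 2.66% to 2.90% in M5. Of the 24 chains with enough counts to be tested, 21 passed an adjusted p of 0.05, 16 of them lower and 5 higher in M5_O5. Among all 12434 genes tested, 37.1% passed, 17.6% lower and 19.5% higher. The 16 lower chains were 11 integrins and 5 laminins, of which LAMC1 differed least, by 1.13-fold. The 5 higher chains were LAMB1, LAMB2, ITGAE, ITGA4 and ITGA10. The median log2 fold change, M5_O5 over M5, was -0.30 over the 24 chains and 0.01 over all genes. In 18 of the 24, the 4 libraries of one title lay wholly beyond the 4 of the other, as they did in 33.6% of all genes. Without M5 replicate 1, the counts were again 16 lower and 5 higher, and each of the 21 chains kept its call. The log2 fold change then moved by 0.72 in ITGA4 and 0.27 in ITGAX, and by at most 0.0975 in the other tested chains.

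At a 2-fold difference, 2 chains were called, ITGA4 and ITGA10, both higher in M5_O5, where 3.2% of all genes were called (2.87% higher and 0.33% lower). Level and direction went together in these libraries. Of 2106 genes with at least 100 CPM, 42% were lower past the adjusted p and 177 were higher, with a median of -0.13. Of the 17 chains at that level, 16 (94.1%) were lower, 1 (LAMB2) was higher, and the median was -0.38. With the trend of fold change on level removed, 10 chains were lower and 4 higher, and LAMB3, LAMA5, LAMC1, ITGA6, ITGB1, ITGB3, ITGB5 and ITGAE no longer passed, while ITGB7 passed (-0.44, adjusted p = 0.0304).

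**Figure D1:**
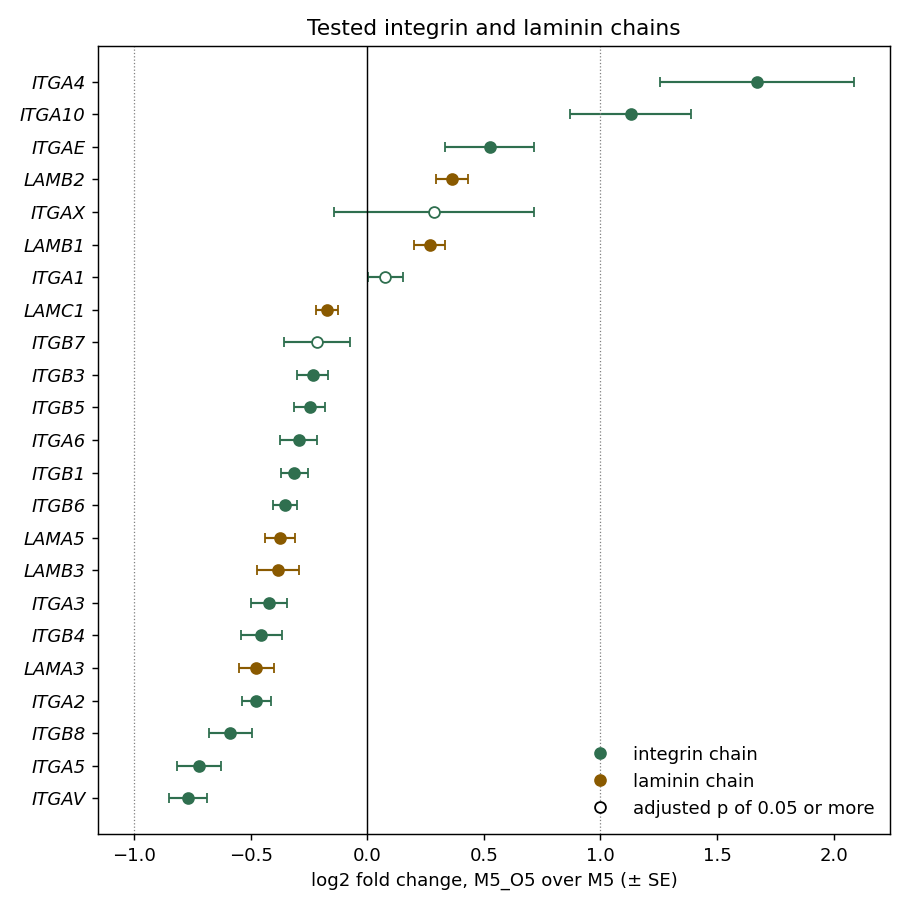
Log2 fold change of each tested chain, M5_O5 over M5, with its standard error, from 4 libraries a group. Filled points passed an adjusted p of 0.05, dotted lines mark 2-fold, and the points of the 23 chains shown run from -0.77 for ITGAV to 1.67 for ITGA4.

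**Figure D2:**
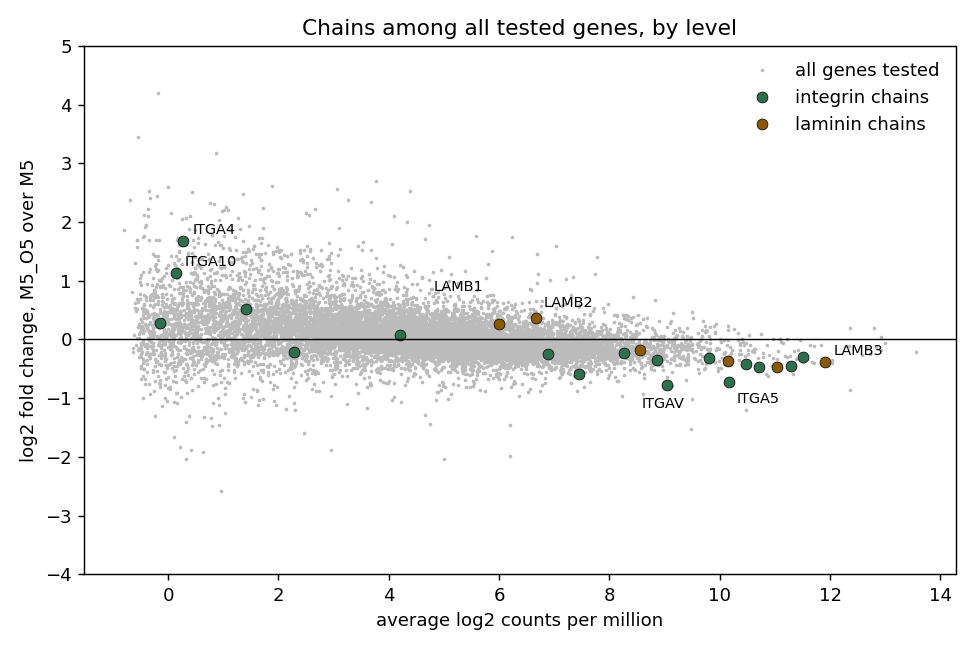
Log2 fold change, M5_O5 over M5, against the average log2 CPM of each of 12434 tested genes (grey) and of the integrin (green) and laminin (brown) chains. Most chains lie to the right, at a high level, and below the line at 0, where 42% of genes of at least 100 CPM were also lower past the adjusted p.

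The LAMA3 and LAMB3 chains of laminin-332 were both lower in M5_O5. LAMB3, the β3 chain, had 2876, 3525, 3711 and 3251 CPM in M5_O5 and 3743, 4771, 4357 and 4564 CPM in M5. The groups came close, since M5 replicate 1 was only just above the highest M5_O5 library. The log2 fold change was -0.38 (SE 0.09, adjusted p = 0.00432), and with the level trend removed it was -0.11 (adjusted p = 0.167). LAMA3, the α3 chain, had 1567, 1897, 1801 and 1758 CPM in M5_O5 and 2139.9, 2547, 2495 and 2576 CPM in M5. Its groups were apart, with a log2 fold change of -0.47 (SE 0.0759, adjusted p = 0.000293).

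The TPM ratio of LAMA3 to LAMB3 was 0.333 ± 0.0173 in M5_O5 (0.307 to 0.345) and 0.356 ± 0.0119 in M5 (0.339 to 0.365), each as mean ± SD with n = 4. The groups overlapped, with an adjusted p of 0.143 over the 15 chain pairs tested (exact permutation test, two-sided). The smallest p that 4 against 4 libraries allow is 0.0286, and the pairs that reached it had an adjusted p of 0.0476.

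**Figure D3:**
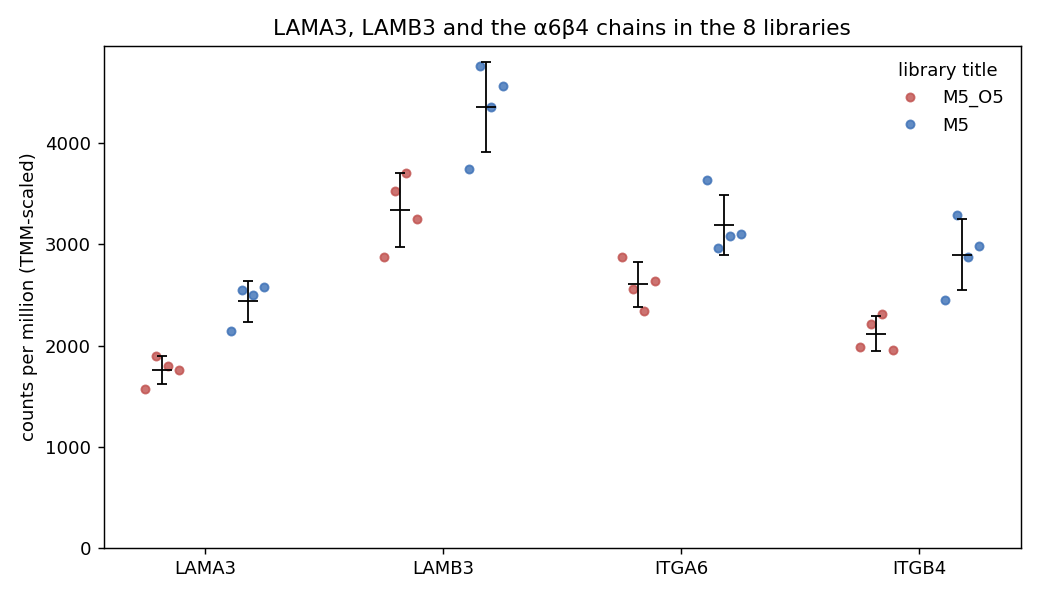
CPM of LAMA3, LAMB3 and the α6β4 chains in each of 8 libraries, with the mean and SD of each group of 4. For each gene every M5 point lies above every M5_O5 point, and for LAMB3 the groups come close, at 2876 to 3711 CPM against 3743 to 4771 CPM.

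In the main fit, the RNA of both chains of α6β4, the receptor for laminin-332 in hemidesmosomes, was also lower. ITGB4, the β4 chain with the long cytoplasmic tail that binds plectin, had 1985, 2209, 2315 and 1958 CPM in M5_O5 and 2448, 3289.7, 2877 and 2986 CPM in M5. All M5 libraries were higher, replicate 1 by the least. The log2 fold change was -0.45 (SE 0.087, adjusted p = 0.00114). ITGA6, its only α partner, had 2876, 2563, 2344 and 2637 CPM in M5_O5 and 3633, 2961, 3082 and 3104 CPM in M5, where replicate 1 was the highest. Its log2 fold change was -0.29 (SE 0.0793, adjusted p = 0.00959), and the call was lost on scaling by library size alone (adjusted p = 0.108), with the level trend removed (adjusted p = 0.766) and in both fits on TPM (adjusted p = 0.309 and 0.305).

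The TPM ratio of ITGA6 to ITGB4 was 1.23 ± 0.201 in M5_O5 and 1.11 ± 0.258 in M5, with wide overlap (adjusted p = 0.49, exact permutation test). The ratio of ITGA6 to ITGB1, its other possible partner, was 2.06 ± 0.0934 and 2.03 ± 0.207 (adjusted p = 0.743, exact permutation test). All 6 hemidesmosome partner genes fixed for the comparison had at least 100 CPM, where 42% of all genes were lower past the adjusted p. Of these 6 partners, 3 were lower past it, 0 were higher, and the median log2 fold change was -0.22. The lower genes were KRT14, a basal keratin (-0.40, adjusted p = 0.000868), COL17A1, the transmembrane collagen that binds laminin-332 (-0.33, adjusted p = 0.00102), and PLEC, the plectin that ties β4 to keratin (-0.35, adjusted p = 0.00243). Without M5 replicate 1, 4 of the partners were lower and 1, DST, was higher (0.19, adjusted p = 0.00553).

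The chains that pair with β1 on keratinocytes differed by unequal amounts. ITGB1, the shared β1 chain, had 837, 790.4, 741 and 836 CPM in M5_O5 and 991, 976, 991 and 1018 CPM in M5. The groups were apart with a log2 fold change of -0.31 (SE 0.0567, adjusted p = 0.000772), which did not pass with the level trend removed (-0.11, adjusted p = 0.174) or on log2(TPM + 1) (adjusted p = 0.0702). ITGA2, the collagen-binding α2 chain, had 1383, 1434, 1316 and 1514 CPM in M5_O5 and 1921, 1895, 2002 and 2035 CPM in M5. Its log2 fold change of -0.48 (SE 0.0608, adjusted p = 5.11e-05) was larger than that of ITGB1, and the TPM ratio of ITGA2 to ITGB1 was 0.802 ± 0.033 in M5_O5 and 0.898 ± 0.0194 in M5 (exact permutation p = 0.0286, adjusted p = 0.0476).

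ITGA3, whose α3β1 binds laminin-332 and laminin-511, had 1128, 1263, 1296 and 1176 CPM in M5_O5 and 1389.8, 1782, 1658 and 1674 CPM in M5, with a log2 fold change of -0.42 (SE 0.0769, adjusted p = 0.000825). Its ratio to ITGB1 was 1.15 ± 0.139 and 1.23 ± 0.133, which overlapped (adjusted p = 0.49, exact permutation test). ITGA5, the α chain of the fibronectin receptor, had 763, 951, 896 and 876 CPM in M5_O5 and 1139, 1566, 1501 and 1540.5 CPM in M5. M5 replicate 1 stood below the other M5 libraries but above all of M5_O5. The log2 fold change was -0.72 (SE 0.0957, adjusted p = 6.87e-05), and -0.82 without M5 replicate 1. The ratio of ITGA5 to ITGB1 was 0.957 ± 0.129 and 1.27 ± 0.184 (adjusted p = 0.117, exact permutation test), and its groups overlapped through M5 replicate 1.

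ITGA1, a collagen-binding α chain of low level here (18.8 ± 0.701 and 17.9 ± 1.12 CPM), had a log2 fold change of 0.08 (adjusted p = 0.447). FN1, the fibronectin gene, was higher in M5_O5 (0.47, adjusted p = 3.88e-05), while its receptor chain ITGA5 was lower. FN1 was named after its value was seen.

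The αv integrins bind matrix proteins that carry the RGD sequence, and αvβ6 and αvβ8 release TGF-β from its latent complex. ITGAV, the αv chain that they share, had 428, 383, 328.5 and 413 CPM in M5_O5 and 730.2, 607, 645 and 666 CPM in M5. The groups were far apart for an abundant chain, with a log2 fold change of -0.77 (SE 0.081, adjusted p = 1.07e-05). It was at -0.60 with the level trend removed and -0.72 without M5 replicate 1, and passed the adjusted p in all alternatives run.

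Of its β partners, ITGB6 had 418, 422, 386 and 418 CPM in M5_O5 and 531, 528, 517 and 525 CPM in M5 (log2 fold change -0.35, SE 0.0513, adjusted p = 0.000136). ITGB8 was at 124 to 154 CPM in M5_O5 and 185 to 248.99 CPM in M5 (log2 fold change -0.59, SE 0.0907, adjusted p = 0.000226). ITGB5 was at 102 to 118 and 115 to 135.1 CPM, with overlapping groups (-0.25, adjusted p = 0.00839), and ITGB3 at 257 to 298 and 299 to 353 CPM (-0.23, adjusted p = 0.0131). Both fell short on library size alone, with the level trend removed and on TPM, and ITGB3 also without M5 replicate 3 (adjusted p = 0.0529) or replicate 4 (adjusted p = 0.0521).

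Relative to 3 of its partners, ITGAV was lower in M5_O5. The TPM ratio of ITGAV to ITGB1 was 0.247 ± 0.015 in M5_O5 and 0.340 ± 0.025 in M5, that to ITGB6 was 0.602 ± 0.0508 and 0.804 ± 0.0585, and that to ITGB5 was 1.58 ± 0.24 and 2.23 ± 0.39 (each exact permutation p = 0.0286, adjusted p = 0.0476). The ratio to ITGB8 was 3.49 ± 0.153 and 4.01 ± 0.312, which overlapped (adjusted p = 0.0857, exact permutation test). No pair of ITGAV with ITGB3 was among the pairs compared.

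Of 13 genes of the TGF-β system that αv integrins act on, 9 were tested, 6 were lower in M5_O5, 0 were higher, and the median was -0.27, beside 17.6% lower and 19.5% higher over all genes. Without M5 replicate 1, 6 of 10 were lower and 1 was higher. SMAD7, an inhibitor that TGF-β signalling induces, was at 37.1 ± 2.16 CPM in M5_O5 and 59.2 ± 2.7 CPM in M5 (-0.67, adjusted p = 4.14e-06). LTBP1, which tethers latent TGF-β to matrix, had a log2 fold change of -0.71 (adjusted p = 1.03e-05).

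**Figure D4:**
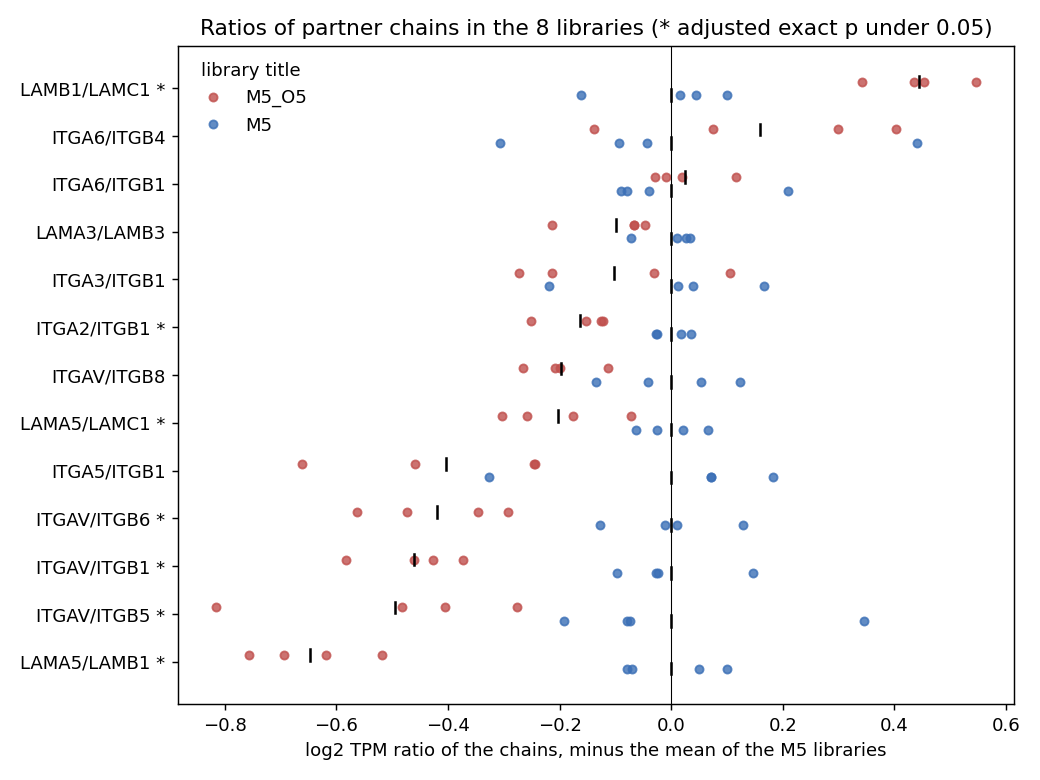
Log2 TPM ratio of 13 pairs of partner chains in each of 8 libraries, set to the mean of the 4 M5 libraries, with bars at the group means. Asterisks mark the 7 of them with an adjusted exact p of 0.0476, from LAMA5/LAMB1, where M5_O5 lies furthest to the left, to LAMB1/LAMC1, furthest to the right.

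Laminins with the γ1 chain went in both directions. LAMA5, the α5 chain of laminin-511 and laminin-521, had 1007, 966, 1078 and 903.5 CPM in M5_O5 and 1216, 1354, 1246 and 1308 CPM in M5 (log2 fold change -0.37, SE 0.065, adjusted p = 0.00055). LAMC1, the γ1 chain, was at 345 to 358 and 393 to 400.3 CPM, a small difference between tight groups (-0.17, SE 0.0473, adjusted p = 0.0106) that did not pass with library size alone (-0.06, adjusted p = 0.324), upper quartile scaling, the level trend removed or TPM.

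Both β chains that join γ1 were higher in M5_O5. LAMB1, the β1 chain, had 65.0, 69.3, 74.3 and 68.8 CPM in M5_O5 and 51.2, 58.8, 58.4 and 61.7 CPM in M5 (log2 fold change 0.27, SE 0.0666, adjusted p = 0.00612). LAMB2, the β2 chain, had 109, 118, 126 and 107 CPM in M5_O5 and 90.9, 98.1, 82.6 and 86.3 CPM in M5 (0.36, SE 0.0686, adjusted p = 0.00105). No library of one title reached into the other in either gene, and both passed in all alternatives run.

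The order of the chains, per length, was LAMA5 above LAMC1 above LAMB2 above LAMB1 in every group mean. The ratio of LAMA5 to LAMB1 was 6.86 ± 0.491 in M5_O5 and 10.7 ± 0.665 in M5, that of LAMB1 to LAMC1 was 0.282 ± 0.0164 and 0.207 ± 0.0158, and that of LAMA5 to LAMC1 was 1.93 ± 0.137 and 2.22 ± 0.0862 (each exact permutation p = 0.0286, adjusted p = 0.0476). The last of these groups were 1.80 to 2.11 and 2.12 to 2.32, only just apart.

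In all, 9 of the 15 pairs passed. Since each is at the smallest p that the design allows, the adjusted p depends on how many pairs reach it, and without M5_O5 replicate 3, M5 replicate 3 or M5 replicate 4 the number past it was 0.

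The 2 chains called at 2-fold were near the lower limit of the test. ITGA4, the α4 chain best known from leukocytes, had estimated counts of 35, 30, 14 and 31 in M5_O5 and 16, 5, 3 and 6 in M5. M5_O5 replicate 3 lay below M5 replicate 1, so the groups overlapped. The log2 fold change was 1.67 (SE 0.417, adjusted p = 0.00625), and 2.39 without M5 replicate 1. ITGA10, a collagen-binding α chain best known from cartilage, had estimated counts of 30, 20, 20 and 20 in M5_O5 and 9, 8, 11 and 8 in M5. The groups did not overlap, and the log2 fold change was 1.13 (SE 0.26, adjusted p = 0.00382). Without M5_O5 replicate 1 it was 0.96, below 2-fold. The summed leukocyte markers were at 239 to 265 TPM in M5_O5 and 268 to 290.2 TPM in M5, nearly all of it HLA-DRA, CD14 and CD68. PTPRC was at 0, and CD3E, LYZ, ITGAM and ITGB2 were at 0 to 0.71 TPM. The part of these markers in the ITGA4 result was not tested. On log2(TPM + 1), which understates low genes, the values were 0.38 for ITGA4 and 0.34 for ITGA10.

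ITGAE, which pairs with β7 to bind E-cadherin, had estimated counts of 49, 61, 39 and 54 in M5_O5 and 30, 34, 36 and 24 in M5. The log2 fold change was 0.53 (SE 0.19, adjusted p = 0.0426). The groups overlapped in CPM, and the call was lost on leaving out any of 6 of the 8 libraries. HASPIN, a mitotic kinase gene that lies within ITGAE, had a log2 fold change of 0.57 (adjusted p = 0.0155). In GENCODE v29 its exon lies on the opposite strand and shares 0 bases with the protein-coding transcripts of ITGAE and 427 with its other transcripts, and whether reads were shared in counting was not tested. ITGB7, its β partner, was at 3.91 to 5.12 and 4.36 to 6.07 CPM (-0.21, adjusted p = 0.253), and ITGAX, a leukocyte α chain, at 0.407 to 1.43 and 0.219 to 1.24 CPM (0.29, adjusted p = 0.63).

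The other 12 chains were not tested. LAMB4 had an estimated count of 0 in all 8 libraries. With 3 counts as the limit that a count of 0 allows, from 0.172 to 0.219 CPM in the 8 libraries and for counting error only, ITGA2B, ITGAL, ITGB2, LAMA1, LAMA4 and LAMC3 exceeded it in no library and ITGA9 and LAMA2 in 1 library each. ITGAM had estimated counts of 4 to 11, ITGA11 of 2 to 11 and ITGA7 of 0 to 8. The β2 chain ITGB2, which leukocyte integrins share, and PTPRC were thus at or near 0 in every library.

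No transcript share passed the adjusted p, under a test that could not detect a difference in only a few transcripts. The smallest p that 4 against 4 libraries allow is 0.0286. After adjustment a share at that p can pass only if many others reach it too. In the 5 chains that had 2 or more transcripts of at least 10% of the gene's TPM, 0 of 12 transcript shares passed (exact permutation test, smallest p 0.0571, in LAMB2). The main LAMB2 transcript, which encodes 1798 residues, held 85.1% ± 1.4 of its TPM in M5_O5 and 89.8% ± 2.14 in M5. For ITGB4, transcripts that encode 1752 residues held 50.2% and 45.1% in M5_O5 and 50.2% and 45.2% in M5. For ITGA6, the form of 1073 residues (α6A) held 63.6% ± 8.2 in M5_O5 and 66.4% ± 8.2 in M5, and the form of 1091 residues (α6B) 15.3% ± 1.66 and 16.9% ± 1.2.

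LAMA3 has a short form that starts from an internal promoter and is the one in epidermal laminin-332. At a minimum share of 5%, the short form of 1724 residues held 87.8% ± 0.244 of LAMA3 TPM in M5_O5 and 88.4% ± 0.227 in M5, and the long form of 3333 residues 8.71% ± 0.352 and 7.69% ± 0.293 (exact permutation p = 0.0286, adjusted p = 0.183 over 32 transcripts). The groups of each were apart, by -0.60 and 1.01 percentage points (M5_O5 minus M5). The 2 LAMA5 transcripts had the same p and adjusted p with a wider gap. The main one, which encodes 3695 residues, held 87.0% ± 0.751 of LAMA5 TPM in M5_O5 and 90.7% ± 1.06 in M5 (-3.64 points), and a predicted one 11.3% ± 0.788 and 7.49% ± 1.25 (3.85 points).

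The inner partners of integrins were also mostly lower. Of 36 focal adhesion and integrin activation genes, 33 were tested, 18 were lower in M5_O5 and 1 (FERMT2) was higher, with a median of -0.22, beside 17.6% lower and 19.5% higher over all genes. Of the 18 with at least 100 CPM, 14 were lower, beside 42% of all genes at that level. Without M5 replicate 1, 19 were lower and 0 higher. The genes with the smallest adjusted p were NEDD9, a scaffold of focal adhesion signalling (-0.81, adjusted p = 2.3e-05), the kinase gene SRC (-0.54, adjusted p = 4.88e-05) and FERMT1, the kindlin of epithelial cells that activates integrins (-0.62, adjusted p = 5.88e-05). Over all genes of at least 100 CPM, 42% were lower past the adjusted p, and 10 of 11 lateral partners, membrane proteins that sit beside integrins, had that level. Of these 10, 6 were lower and 2 higher. Of all 11 lateral partners, 6 were lower and 3 higher, with a median of -0.16. They included CAV1, the caveolin (0.74, adjusted p = 1.19e-05), SLC3A2, the CD98 heavy chain (0.40, adjusted p = 0.000261), and PLAUR, the urokinase receptor (-0.44, adjusted p = 0.000894).

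Taken over all levels, the ligands leaned to the other side. Of 30 integrin ligands and basement membrane genes other than laminins, 22 were tested, 10 were higher in M5_O5, 4 were lower, and the median was 0.20, beside 19.5% higher and 17.6% lower over all genes. All 5 called at 2-fold were higher, as were 357 of the 398 genes called at 2-fold in all. Of the 7 list genes with at least 100 CPM, 2 were higher and 2 lower. At that level 42% of all genes were lower past the adjusted p. THBS1, a thrombospondin, had 103 to 132 CPM in M5_O5 and 32.8 to 36.0 CPM in M5 (1.75, adjusted p = 1.53e-08), and EFEMP1, a fibulin, had 29.3 to 33.4 and 6.1 to 13.2 CPM (2.001, adjusted p = 2.93e-06). NID2, a nidogen that links laminin to collagen IV (1.86, adjusted p = 0.000536), NPNT, the nephronectin that binds α8β1 (1.58, adjusted p = 7.63e-05), and FRAS1, a protein of embryonic basement membrane (1.04, adjusted p = 0.00196), were under 6 CPM in both group means. COL7A1, the anchoring fibril collagen that laminin-332 binds, was lower, at 734 ± 16.6 and 986 ± 30.3 CPM (-0.42, adjusted p = 3.81e-05). The difference between the ligand list and the receptor chains was not tested.

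Of 10 other laminin receptors and laminin processing genes, 9 were tested, 4 were lower and 4 higher, with a median of 0.09. Over all genes 17.6% were lower and 19.5% higher. Of the 6 list genes with at least 100 CPM, 4 were lower and 1 higher, beside 42% of all genes lower at that level. SDC1, the syndecan of keratinocytes, was lower (-0.69, adjusted p = 6.02e-06), as was BMP1, a protease that trims laminin chains and procollagens (-0.48, adjusted p = 0.00011). MMP2, a matrix protease, was called at 2-fold, at 26.7 ± 1.97 CPM in M5_O5 and 12.5 ± 2.37 CPM in M5 (1.10, adjusted p = 8.35e-06).

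**Figure D5:**
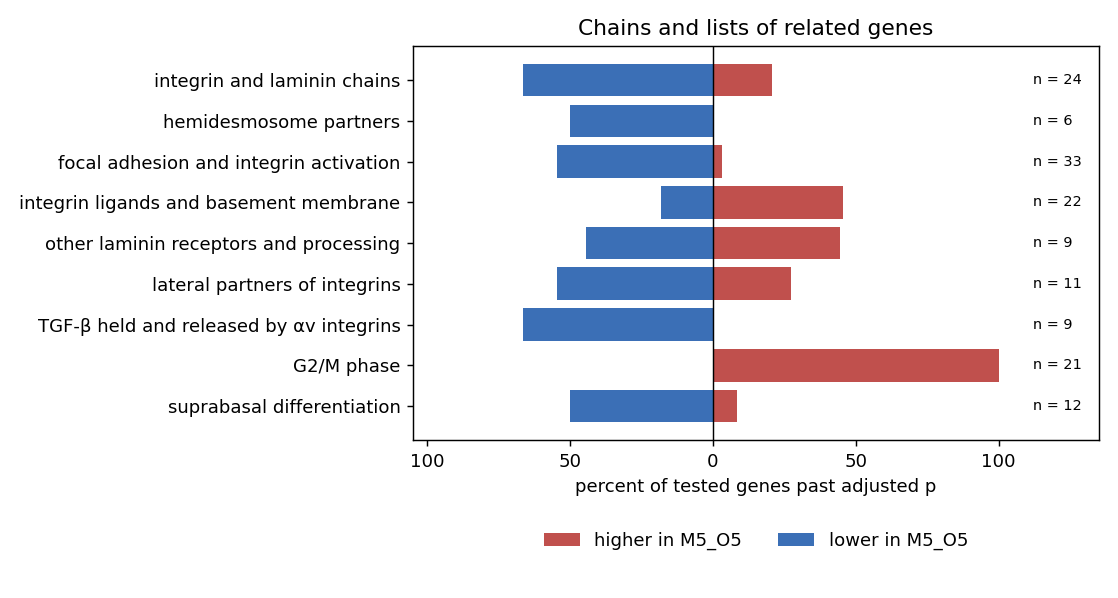
Percent of the tested genes of each list that passed an adjusted p of 0.05, higher in M5_O5 to the right and lower to the left, with the number tested. The chains and their inner partners lean to the left, the ligand list leans to the right with 10 of 22 higher, and all 21 G2/M genes lie to the right.

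Other programmes moved with the same titles. All 21 genes of G2 and mitosis tested were higher in M5_O5, 18 of them by 2-fold, with a median of 1.08. Over all genes 19.5% were higher, and 2.87% were higher by 2-fold. The G2/M genes included CCNB1 (1.07), AURKA (0.76) and PLK1 (1.42). Without M5 replicate 1 all 21 were again higher, 20 of them by 2-fold, with a median of 1.43. Of 18 suprabasal differentiation genes, 12 were tested, 6 were lower in M5_O5 and 1 was higher, with a median of -0.32. Over all genes 17.6% were lower and 19.5% higher. The higher gene of the list was FLG (0.58, adjusted p = 0.0018). KRT1 (-2.04, adjusted p = 0.00227) and KRT10 (-1.04, adjusted p = 0.0171) were called at 2-fold, and both were highest in M5 replicate 1. Without that library KRT1 was at -1.28 (adjusted p = 0.000298) and KRT10 at -0.49 (adjusted p = 0.0114), no longer 2-fold, and 7 of the 12 genes were lower. IVL (-0.75, adjusted p = 3.71e-05) and SPRR2A (-0.81, adjusted p = 0.000108) were lower by less than 2-fold in the fit of all 8 libraries. In bulk RNA, fewer cells of a kind and less RNA per cell cannot be told apart, and the part of these programmes in the differences of the chains was not tested.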

How the data were processed

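RNA of 8 HaCaT cultures was sequenced, 4 in each title group. The authors filtered reads, mapped them with HISAT2 v2.1.0, quantified them with StringTie v2.1.5 and used DESeq2 v1.30.1. The submitters' processing notes also name Bowtie2 2.2.5, RSEM 1.2.8 and the mouse build mm10, although the transcripts are human RefSeq, so the genome build is unclear and no gene positions were taken from the files. The authors deposited an estimated count per transcript, not normalized, with TPM (scaled to a fixed sum per library) and FPKM (per length and library size). The table also holds the authors' group means, which were not used.

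Estimated counts were summed over 86639 transcripts to 17131 genes and rounded. Symbols came from RefSeq GRCh38.p14, which matched 17072 identifiers. Genes kept by filterByExpr (12434) were TMM-scaled and compared with edgeR 4.0.16 (quasi-likelihood test, R 4.3.3) with Benjamini-Hochberg adjustment, fitted to all genes. The threshold was an adjusted p-value of 0.05, and for a 2-fold call a log2 fold change of at least 1 as well. DESeq2, which the study used, was run as an alternative. Chain ratios and transcript shares used TPM and two-sided exact permutation tests. Depth was 13708055 to 16922693 counts per library.

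The chains and gene lists were chosen with earlier results of these data known. Named in full were the chains called at 2-fold, the 12 with the highest TPM and those of laminin-332 and α6β4. Of each list, the 3 genes with the smallest adjusted p were named. Genes called at 2-fold were also named, except in the G2/M list, which had 18 of them. Values in every library are given in CPM, except for ITGA4, ITGA10 and ITGAE. Those are rounded estimated counts, which are not scaled to library size. LAMB1, LAMB2 and ITGAE were also given per library. The values of 1 chain and 1 list gene that this rule would name are not reported here, though counts include them.

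On simulated counts edgeR recovered 98 of 100 genes changed 2-fold and passed 9 unchanged genes. The simulation changed only genes above a count limit, gave all genes the same dispersion and set no library apart. It therefore does not cover differences under 2-fold, genes with counts as low as those of ITGA4 and ITGA10, or a library like M5 replicate 1. Alternatives used DESeq2 1.42.0, limma 3.58.1 on log2(TPM + 1) and log2(TPM + 0.1), library size or upper quartile scaling, removal of the trend on level, other filters, blocks by replicate number, and 7 of 8 libraries at a time. Replicates differed by a chi-square per gene of 2.01 to 16.25, so all were counted.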

Additional observations from a re-analysis of the deposited data

Results flagged for a closer look

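In groups of 4 libraries, 64 sets of values were checked for a library far from the other 3, and 6 stood out. Chance gives about 1 in 20 groups, or 3.2 of 64. ITGA10 was at 1.74 CPM in M5_O5 replicate 1 and at 1.15 to 1.19 CPM in the other M5_O5 libraries. ITGA5 was at 1139 CPM in M5 replicate 1 and at 1501 to 1566 CPM in the other M5 libraries. ITGB6 was at 386 CPM in M5_O5 replicate 3 and at 418 to 422 CPM in the other M5_O5 libraries. The hemidesmosome partners had a mean log2(CPM + 1) of 9.86 in M5_O5 replicate 4 and of 9.98 to 9.996 in the other M5_O5 libraries. M5 replicate 1 also stood out in the ligand and basement membrane list, at 5.24 against 5.11 to 5.13, and in the G2/M list, at 3.40 against 2.52 to 2.61. What set these libraries apart was not tested.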

How the results depend on the processing

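The chains past the adjusted p numbered 14 to 21 in all alternatives, against 21 in the main fit, and 19 to 21 on leaving out a library. The chains called at 2-fold numbered 1 with the level trend removed, 0 with at least 10 counts in every library, 0 on log2(TPM + 1), and 1 to 2 on leaving out a library; with no filter ITGA9 joined them, lower in M5_O5, on at most 4 counts in a library. The median log2 fold change of the chains was -0.19 with library size only, -0.25 with upper quartile scaling, -0.14 with the level trend removed, -0.35 with at least 10 counts in every library, and -0.18 on log2(TPM + 1) and on log2(TPM + 0.1). Library size alone moved the median of all genes from 0.01 to 0.13, and its calls from 2420 higher and 2192 lower to 3858 higher and 1008 lower. Relative to the median of all genes the chains were at -0.32 in the main fit and on library size alone, and at -0.12 with the level trend removed. Of 453 values of single chains under alternatives, 416 kept their direction and side of the threshold, 33 fell short of it, 1 (ITGB7, -0.44) passed it, and 3 changed sign: ITGA1 (-0.0052) and ITGAX (-0.064) with the level trend removed, and ITGAX without M5_O5 replicate 4 (-0.073, in a range of -0.073 to 0.73 on leaving out a library). The cause of these changes was not tested. Genes of the 6 adhesion lists past the adjusted p numbered 59, and 42 to 63 in the alternatives. Whether replicate numbers pair the samples is not settled. Same-numbered libraries correlated at 0.28, 0.17, 0.03 and -0.0058, and M5_O5 replicate 3 correlated at 0.34 with M5 replicate 2. A block by replicate number gave 2703 genes higher and 2552 lower, against 2420 and 2192 in the main fit. With the replicate block, 21 chains passed and 2 were called at 2-fold. The number of chain ratios past the adjusted p was 0 with the replicate block, where the smallest possible p is 0.125, and 0 to 9 on leaving out a library, and 0 transcript shares passed in any alternative. For the 12 chains with too few counts for the test, depth limits what can be said.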
